A study of Homo sapiens with 9 samples.

Results

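TE13 is an established human cell line of esophageal squamous cell carcinoma (ESCC), and RNA-seq was performed on TE13 cells transfected with control siRNA or with siRNAs against the lncRNA LINC00885 (PARylator). The data described here are those of the 3 libraries labelled control siRNA, replicates 1 to 3, which were chosen by their labels alone from the 9 libraries of the series. They show what the cells transcribed without the knockdown, and no value of the knockdown libraries is given. No transgene or deletion is named for these cells, and the sources used here do not give the time from transfection to RNA extraction. The libraries come from 1 cell line, and no label states that they were separate cultures, so the spread between them may be technical. Each library was made from poly(A)+ RNA and held 15337917, 15588037 or 17899074 counts on genes. Levels are given as FPKM, the count of a gene divided by its exonic length and by the library total, as mean ± SD of the 3 libraries (n = 3) unless single libraries are named. FPKM is scaled by length, so that levels of different genes can be set side by side, although a gene whose annotated exons are mostly unused reads low on this scale.

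Stratified squamous epithelium, the tissue from which ESCC arises, renews itself from a basal layer. Basal cells depend on the transcription factors p63 (TP63) and SOX2 and build their cytoskeleton from keratins 5 and 14, which desmosomes and hemidesmosomes anchor to neighbouring cells and to the basement membrane. As cells move upward they switch to other keratins (keratins 4 and 13 in the esophagus) and make the cross-linked envelope proteins, among them involucrin (IVL), cornulin (CRNN) and the small proline-rich proteins. Squamous tumours are known for gains of chromosome 3q (TP63, SOX2), 7p (EGFR) and 11q13 (CCND1) and for loss of CDKN2A on 9p21.

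All 6 genes listed as markers of this lineage reached 1 FPKM, beside 54.1% of all protein-coding genes. EGFR, CCND1, TP63 and SOX2 are also counted among the oncogenes below. KRT5 (ENSG00000186081, chr12:52514575-52520530, minus strand, GRCh38), a basal keratin, had 134, 151 and 143 FPKM in replicates 1, 2 and 3. CCND1 (ENSG00000110092, chr11:69641156-69654474, plus strand), which encodes cyclin D1, had 117, 111 and 111 FPKM. EGFR (ENSG00000146648, chr7:55019017-55211628, plus strand), the epidermal growth factor receptor, had 67.5, 56.6 and 56.7 FPKM. Of all genes in the table, 99.66%, 99.55% and 99.02% had a lower mean level than KRT5, CCND1 and EGFR. For TP63, SOX2 and KRT14, given next, the shares were 96.45%, 93.45% and 91.93%. Such shares are raised by the 53.6% of all genes that had 0 counts in every library. TP63 (ENSG00000073282, chr3:189631389-189897276, plus strand) had 21.2, 22.0 and 21.1 FPKM. SOX2 (ENSG00000181449, chr3:181711925-181714436, plus strand) had 10.8, 12.7 and 11.5 FPKM. KRT14 (ENSG00000186847, chr17:41582279-41586895, minus strand), the usual partner of KRT5, had 8.47, 9.19 and 9.54 FPKM. KRT5 was therefore 15.7 ± 0.720 times as high as KRT14. The order KRT5, CCND1, EGFR, TP63, SOX2 and KRT14 was the same in every library, although SOX2 and KRT14 were close, and SOX2 was 1.29 ± 0.0855 times KRT14 in FPKM but 0.934 ± 0.0618 times KRT14 with counts divided by the length of the canonical transcript. The keratins, transcription factors and junction genes by which the labelled origin can be checked further, not all of which are basal, are given below.

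The bases just before the transcription start of 4 genes are printed because these genes mark the extremes described below, a highly expressed basal keratin (KRT5), a cell cycle inhibitor pair without reads (CDKN2A and CDKN2B) and an envelope gene near zero (IVL). Each line gives the 100 bases before the RefSeq start (GRCh38.p14), 5′ to 3′ on the strand of the gene, and capitals mark CG dinucleotides and, in IVL, the letters TATAAA.
KRT5: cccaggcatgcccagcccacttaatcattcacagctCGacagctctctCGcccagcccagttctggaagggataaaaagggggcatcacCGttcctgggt
CDKN2A: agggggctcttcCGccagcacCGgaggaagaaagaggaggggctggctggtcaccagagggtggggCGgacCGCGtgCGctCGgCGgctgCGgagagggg
CDKN2B: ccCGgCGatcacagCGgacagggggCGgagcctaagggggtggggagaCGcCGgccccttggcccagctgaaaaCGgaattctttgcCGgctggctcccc
IVL: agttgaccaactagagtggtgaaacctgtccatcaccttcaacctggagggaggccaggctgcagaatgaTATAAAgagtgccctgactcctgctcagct
The windows lie at chr12:52520395-52520494 (minus strand), chr9:21974858-21974957 (minus strand, the start nearest to that of the canonical transcript of CDKN2A), chr9:22009306-22009405 (minus strand) and chr1:152908446-152908545 (plus strand). Over the 250 bases before the start there were 6 CG dinucleotides in KRT5, 20 in CDKN2A, 18 in CDKN2B and 0 in IVL.

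Of the 60605 genes in the table, 28098 had at least 1 count in some library, and 12526 (20.7%) had a mean of at least 1 FPKM. A level of 1 FPKM corresponds to 30.7 counts on a gene of 2000 exonic bases in the smallest library. Among 19942 protein-coding genes 10782 (54.1%) reached it, against 826 of 16780 lncRNA genes. Genes are called silent here where no library had more than 3 counts, which was the case for 39076 genes (64.5%) and for 5192 protein-coding genes (26.0%). Few genes were very abundant, with 4532 at or above 10 FPKM, 322 at or above 100 FPKM and 23 at or above 1000 FPKM. Counts were spread widely, since 1048 ± 2.52 genes were needed to make up 50% of them and protein-coding genes held between 96.66% and 96.71%.

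**Figure D1:**
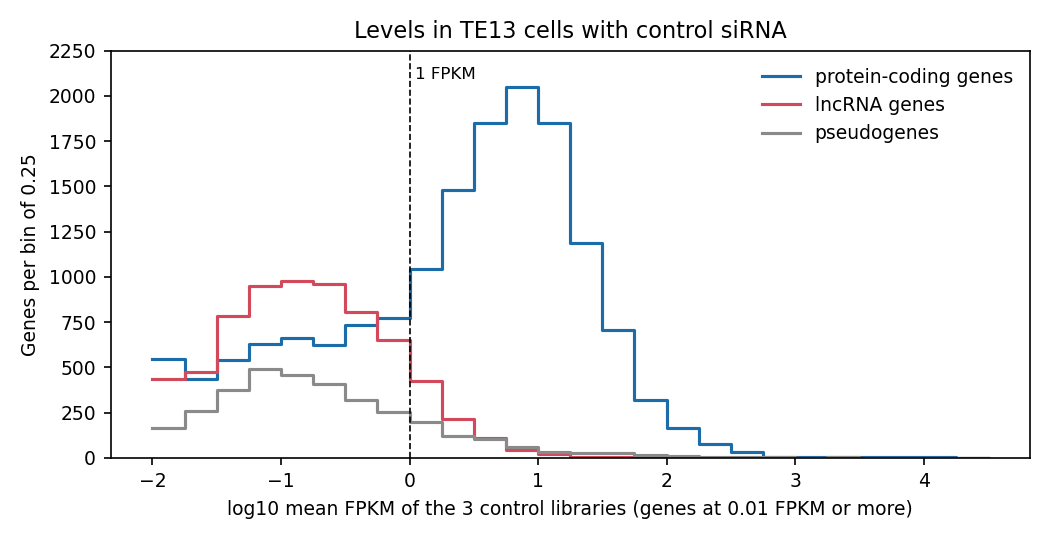
The number of protein-coding genes, lncRNA genes and pseudogenes in bins of 0.25 of log10 mean FPKM over the 3 control libraries is drawn, and the dashed line marks 1 FPKM. Protein-coding genes peak to the right of the line, where 10782 of them lie, and lncRNA genes to the left of it, with 826 to the right.

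The most abundant transcripts were those of the mitochondrial genome, which took between 7.46% and 7.66% of the counts. They filled 15 of the 20 highest places by FPKM, led by the cytochrome c oxidase genes MT-CO2 (13514 ± 104) and MT-CO1 (10633 ± 146) and by MT-ND4 (7850 ± 177), and 8 of the 10 highest by count. The 10 genes with the highest counts held 7.59% ± 0.0813 of all counts. The only nuclear genes among these 10 were ACTB (beta-actin, 112930 counts on average) and HSP90AA1 (a chaperone, 58581 counts). ACTB (1574 ± 18.4 FPKM) and TMSB10 (an actin-binding thymosin, 1182 ± 32.2 FPKM) were the 2 nuclear protein-coding genes among the highest 20.

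The remaining 3 of the 20 were processed pseudogenes, intronless copies of genes for ribosomal proteins and cyclophilin A. RPL41P1 had 2969 ± 129 FPKM against 205 ± 5.12 for RPL41, RPL39P3 had 2121 ± 20.98 against 10.99 ± 0.675 for RPL39, and PPIAP22 had 2059 ± 138 against 156 ± 5.16 for PPIA. The copies are annotated with 81, 156 and 498 exonic bases, and part of each excess lies in this divisor. By counts, which carry no length, PPIAP22 (16753 on average) and PPIA (17223) were close, as were RPL41P1 (3906) and RPL41 (3695), while RPL39P3 had 5382 counts and RPL39 379. A read that matches both a gene and its copy cannot be assigned by sequence, so the levels of all 6 genes are uncertain. The 80 cytosolic ribosomal protein genes, 78 of which reached 1 FPKM, share this uncertainty, and among their highest members were RPL8 (734 ± 28.1), RPL7A (553 ± 18.3) and RPL35 (479 ± 17.1).

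Below actin and thymosin, the highest nuclear protein-coding genes (named after their values were seen) included GAPDH, a glycolytic enzyme (1134 ± 8.24 FPKM), FTL, an iron-storage ferritin chain (1015 ± 38.0), S100A11, a calcium-binding protein (971 ± 6.01), and the chaperone HSP90AB1 (721 ± 12.9). Among surface and secreted products, F3, which encodes tissue factor, the starter of coagulation, had 355, 336 and 327 FPKM. KLK6, a secreted serine protease of the kallikrein family, had 272 ± 11.8 FPKM. Of 18 genes for surface proteins used as drug targets 15 reached 1 FPKM (83.3%, beside 54.1% of all protein-coding genes). Among the highest of them were F3, EGFR and TFRC, the transferrin receptor (47.4 ± 2.14).

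Long noncoding RNAs were few among abundant transcripts. Of the 826 at or above 1 FPKM only 31 reached 10 FPKM and 1 reached 100. That one was NORAD, which binds Pumilio proteins (113 ± 0.381 FPKM). The next, named after their values were seen, were H19, an imprinted RNA, with 83.5, 46.6 and 70.0 FPKM, SNHG29 (42.9 ± 1.495) and GAS5 (40.8 ± 1.85), both hosts of small nucleolar RNAs. H19 varied more between libraries than the others, and its replicate 2 was the lowest. SNHG6, a further host, had 31.5, 36.1 and 39.7 FPKM. MIR205HG, the host of the epithelial miR-205, had 33.0 ± 2.06 FPKM, and MALAT1, a nuclear RNA, had 31.7 ± 2.28, although only 16.3% of the exonic bases of MALAT1 are annotated to no other gene.

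Keratins divided into a few at high level and many at zero. Of 45 keratin genes listed, 18 reached 1 FPKM (54.1% of all protein-coding genes did) and 23 were silent, 15 of them with 0 counts in every library. The highest were not basal keratins but those of simple epithelium. KRT18 had 450, 459 and 443 FPKM, KRT7 had 439, 437 and 427 FPKM, KRT19 had 301, 315 and 318 FPKM, and KRT8 had 281, 293 and 281 FPKM. Every one of these values was above every value of KRT5, and KRT18 and KRT7 were 3.17 ± 0.165 and 3.06 ± 0.195 times as high as KRT5. KRT18 and KRT8 have many processed copies in the genome, so that their levels may miss reads assigned elsewhere or not at all.

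Among the basal and activated keratins, KRT17 (161 ± 2.34 FPKM) and KRT6A (78.7 ± 1.12), which squamous cells make on wounding and in tumours, stood beside KRT5. KRT15 (3.37 ± 0.257) and KRT16 (2.35 ± 0.200) were low, and KRT6B (0.680 ± 0.105) and KRT6C (0, 1 and 0 counts), close relatives of KRT6A, were lower still. The exons of KRT6A, KRT6B and KRT6C are so alike that the split between them depends on how the authors treated ambiguous reads. Of 14 differentiation keratins only KRT80 was high (58.9 ± 2.93), with KRT10 at 6.13 ± 1.34, KRT13 at 1.497 ± 0.554 and KRT9 at 1.16 ± 0.0902. KRT4, the partner of KRT13 in the normal esophagus, had 0 counts in all libraries, as had KRT1, and with 3 counts taken as the limit their levels were under 0.0680 and 0.0786 FPKM. One hair keratin, KRT81, reached 189, 183 and 179 FPKM, while its close relative KRT86 had 1.51 ± 0.189 and 12 of 17 hair keratins were silent.

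**Figure D2:**
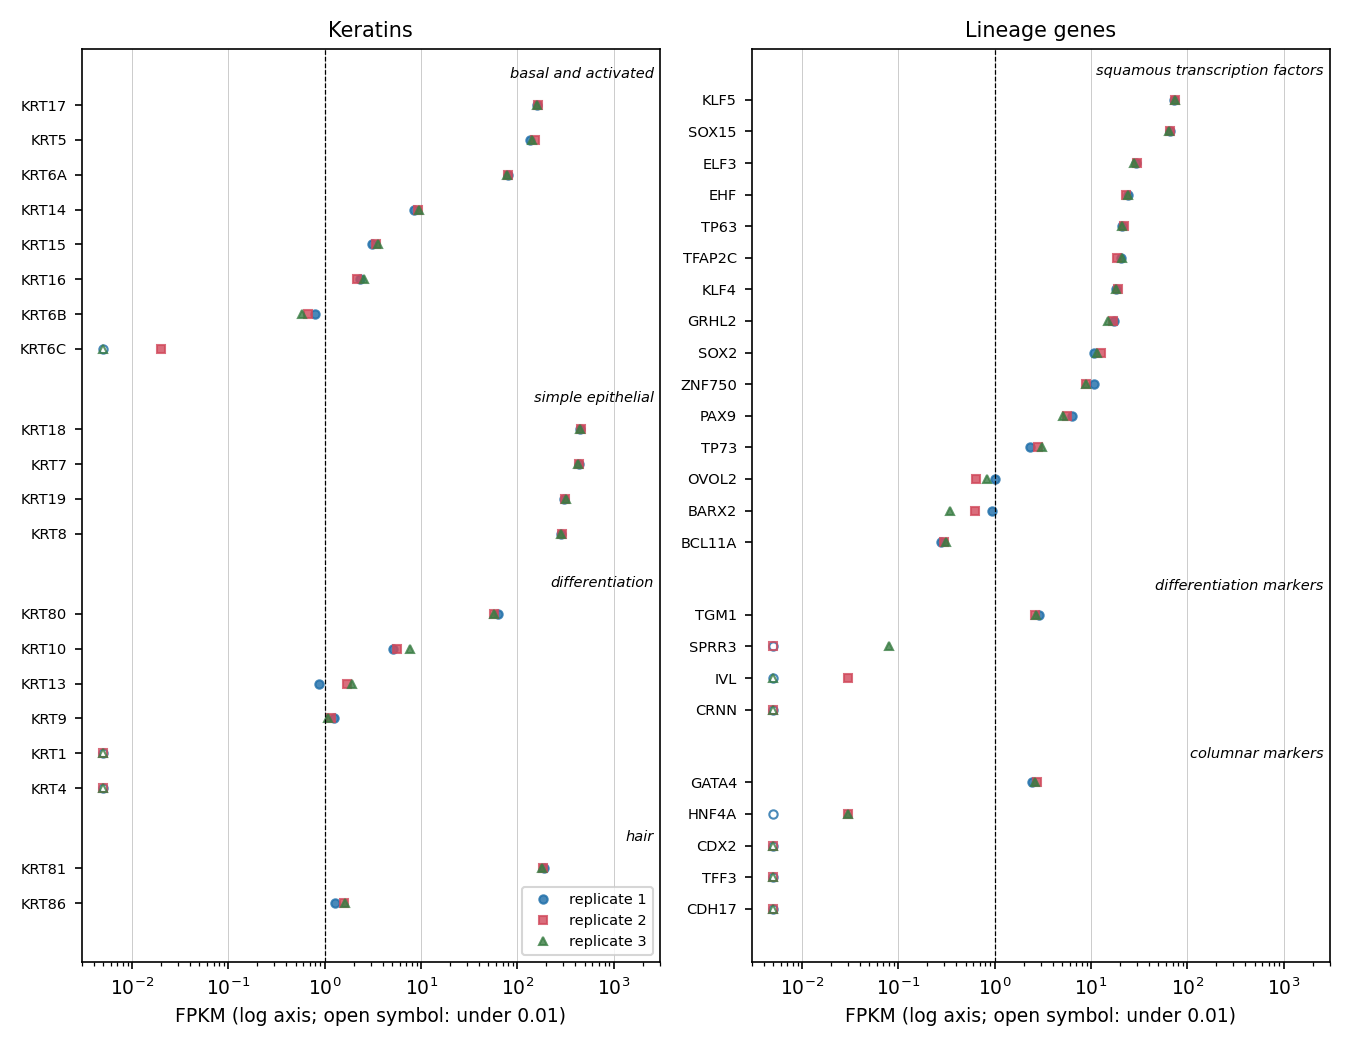
FPKM of each library is drawn on a log axis for keratins (left, grouped by type) and for squamous transcription factors with differentiation and columnar markers (right), as far as the text names them. Circles, squares and triangles are replicates 1, 2 and 3, and open symbols at the left edge are values under 0.01. KRT18, KRT7, KRT19 and KRT8 lie to the right of KRT5, and KRT4, KRT1, CRNN and CDX2 lie at the left edge in all libraries.

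Of 24 transcription factors of squamous epithelium listed, 21 reached 1 FPKM (87.5%, beside 54.1% of all protein-coding genes) and none was silent. Among the highest were KLF5 (73.5 ± 1.55 FPKM), a factor of proliferating basal cells, and SOX15 (65.3 ± 1.39). ELF3 (28.8 ± 0.971) and EHF (23.8 ± 0.622), epithelial ETS factors, came next, followed by TP63, TFAP2C (19.97 ± 1.17), KLF4 (18.4 ± 0.550) and GRHL2 (16.3 ± 1.18), a factor that maintains epithelial junctions. TP63 was 7.97 ± 1.13 times as high as its paralogue TP73 (2.73 ± 0.382). The 3 members under 1 FPKM were OVOL2 (0.830 ± 0.185), BARX2 (0.637 ± 0.300), a factor of esophageal development, and BCL11A (0.297 ± 0.0153).

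Genes of the structures that hold basal cells in place were expressed at high level. All 12 hemidesmosome and laminin-332 genes reached 1 FPKM, beside 54.1% of all protein-coding genes, and 11 of them 10 FPKM, beside 21.9%. Of the chains of laminin-332, the ligand that hemidesmosomes bind, LAMB3 had 230, 202 and 199 FPKM and LAMA3 had 128, 103 and 102. In both genes replicate 1 was the highest, and replicates 2 and 3 were close to each other. ITGA6, the alpha 6 integrin subunit, had 77.4 ± 3.63 FPKM. Of 14 desmosome genes 11 reached 1 FPKM (78.6%, beside 54.1% of all protein-coding genes). They were led by JUP (plakoglobin, 108 ± 0.872), PERP (66.4 ± 2.98), DSP (desmoplakin, 60.5 ± 3.75) and DSG2 (a desmosomal cadherin, 46.2 ± 2.48). DSG1, DSC1 and DSG4, cadherins of the upper layers and of hair, were the 3 members below 1 FPKM, chosen after their values were seen, with means of 0.0467, 0 and 0 FPKM.

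Of 30 genes of the upper layers and the cornified envelope, 13 reached 1 FPKM (43.3%, beside 54.1% of all protein-coding genes) and 9 were silent (26.0% of all protein-coding genes were), shares near those of all genes. The highest were EMP1 (30.03 ± 1.37 FPKM), an epithelial membrane protein, CSTA (cystatin A, 29.7 ± 1.15), PPL (periplakin, 22.4 ± 0.528) and CALML5 (15.8, 13.4 and 15.3). Of the markers, TGM1, the transglutaminase that cross-links the envelope, had 2.86, 2.59 and 2.71 FPKM. IVL had 0, 1 and 0 counts, SPRR3 had 0, 0 and 2 counts, and CRNN had 0 counts in all libraries. These 3 genes are among the abundant transcripts of normal esophageal epithelium and were at or under the limit of 3 counts here. The 18 late cornified envelope genes were silent without exception.

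Junction genes of epithelia were all expressed. All 12 listed reached 1 FPKM, beside 54.1% of all protein-coding genes. They were led by CLDN7 (173, 175 and 173 FPKM), CDH1 (E-cadherin, 140, 126 and 134 FPKM), CLDN1 (111 ± 6.83) and CLDN4 (103 ± 1.62), the claudins being proteins of tight junctions. Of 22 mesenchymal genes 8 reached 1 FPKM (36.4%, beside 54.1% of all protein-coding genes). One of them was high, FN1, which encodes fibronectin, with 165, 136 and 136 FPKM, and its replicate 1 was above the others. SNAI2 (6.40 ± 0.707), CDH2 (N-cadherin, 6.31 ± 0.402) and TWIST2 (4.73 ± 0.310) followed at low level. CDH1 was 21.2 ± 2.45 times as high as CDH2, or 12.5 ± 1.449 times with canonical transcript lengths. Chosen after their values were seen, VIM (vimentin) had 12, 8 and 15 counts (0.137 ± 0.0321 FPKM), and ZEB1 and ZEB2, repressors of CDH1, had means of 0.0133 and 0.0167 FPKM. The exons of VIM are annotated to no other gene over 75.4% of their length.

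Markers of other lineages were at or near zero. The 9 blood markers, 5 endothelial markers, 4 neuroendocrine markers and 4 melanocyte markers had no member at 1 FPKM, a level that 54.1% of all protein-coding genes reached. In the same order, the summed levels of these markers in a library lay between 0.710 and 1.54, between 1.20 and 1.54, between 0.180 and 0.390 and between 0.630 and 0.940 FPKM. The pan-leukocyte marker PTPRC had 4, 7 and 4 counts, and MS4A1, KDR, TEK, INSM1, TYR and DCT had 0 counts in every library. Of 8 fibroblast markers only COL1A1, a chain of type I collagen, reached 1 FPKM (1.99 ± 0.159), the partner chain COL1A2 had 14, 2 and 11 counts, and POSTN had 0. In bulk RNA a low level may reflect few cells with much RNA or many cells with little, which cannot be told apart.

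Of 25 genes of columnar and glandular epithelium, 4 reached 1 FPKM (16.0%, beside 54.1% of all protein-coding genes) and 17 were silent (26.0% of all protein-coding genes were). Keratins of simple epithelium, which glandular cells also make, were listed apart and were high, as KRT18, KRT7, KRT19 and KRT8 above. The 4 were transcription factors and a secreted protein, GATA6 (7.78 ± 0.409 FPKM), FOXA1 (7.63 ± 0.505), AGR2 (3.48 ± 0.0557) and GATA4 (2.61 ± 0.160). The intestinal genes CDX2, TFF3 and CDH17 had 0 counts in every library. HNF4A, a master factor of liver and gut, had 0, 5 and 6 counts.

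Of 73 oncogenes listed, 49 reached 1 FPKM (67.1%, beside 54.1% of all protein-coding genes), and their median was 7.51 FPKM. Among receptor tyrosine kinases, which relay growth signals from the cell surface, EGFR was the highest, followed by EPHA2 (39.0 ± 0.156), MET, the receptor of hepatocyte growth factor (38.4 ± 2.44), DDR1, a collagen receptor (32.4 ± 1.29), and AXL (18.0 ± 0.544). EGFR was 11.2 ± 1.09 times as high as its relative ERBB2 (5.41 ± 0.270), or 6.21 ± 0.600 times with canonical transcript lengths, and ERBB4 had 4, 0 and 5 counts. FGFR1, a receptor that is amplified in some squamous tumours, had 0.24, 0.28 and 0.32 FPKM, below FGFR2 (4.56 ± 0.132), FGFR4 (2.35 ± 0.200) and FGFR3 (2.17 ± 0.473) in every library. KIT and NTRK3 had 0 counts.

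Downstream of the receptors, 12 of 13 RAS, RAF and PI3K genes reached 1 FPKM (92.3%, beside 54.1% of all protein-coding genes). They ran from BRAF (1.47 ± 0.135) to MAP2K1 (49.5 ± 0.688). NRAS (38.4 ± 1.13) was above HRAS (12.6 ± 1.19), and their values did not overlap. PIK3CA, which lies in the 3q region often gained in squamous tumours, had 2.51, 2.40 and 2.49 FPKM. Among cell cycle and survival genes CCND1 was followed by MCL1, an inhibitor of apoptosis (96.3 ± 0.981), AURKA, a mitotic kinase (54.97 ± 2.30), and CDK4, the kinase that cyclin D1 activates (53.4 ± 3.79). CCND1 was 26.3 ± 0.558 times as high as CCNE1 (4.29 ± 0.155). BCL2 had 0.26, 0.28 and 0.27 FPKM while its relative BCL2L1 had 24.6 ± 0.408. TERT, the catalytic subunit of telomerase, had 17, 26 and 6 counts.

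Of the oncogenic transcription factors FOSL1, an AP-1 subunit, was the highest with 123, 124 and 125 FPKM, whereas FOS, the founding member of its family, had 0.473 ± 0.136. YAP1, the effector of the Hippo pathway (49.6 ± 0.593), MYC (45.1 ± 0.626) and NFE2L2, which encodes NRF2 (26.6 ± 0.535), came next. MYCN had 0, 1 and 1 counts and MYCL 0.323 ± 0.105 FPKM. NQO1, an antioxidant enzyme that NRF2 induces (59.6 ± 1.25), and TXNRD1 (58.3 ± 2.29) were the highest of 16 NRF2 pathway genes. Of these 12 reached 1 FPKM (75.0%, beside 54.1% of all protein-coding genes). All 20 proliferation genes were above 10 FPKM, a level that 21.9% of all protein-coding genes reached. They ran from E2F1 (14.0 ± 0.815) to PCNA (233 ± 17.9), with MCM7 (118 ± 3.13), CCNB1 (84.1 ± 2.34) and TOP2A (75.5 ± 1.45) below PCNA.

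The 11q13 segment around CCND1 held expressed and silent genes side by side. Of 12 genes 8 reached 1 FPKM (66.7%, beside 54.1% of all protein-coding genes). After CCND1 these were led by CTTN (cortactin, 49.5 ± 0.614), ANO1 (a chloride channel, 24.6 ± 0.480), FADD (an adaptor of death receptors, 21.6 ± 1.58) and MYEOV (13.8 ± 0.465). The fibroblast growth factor genes of the same segment were near zero, FGF4 with 0 counts in every library, FGF3 with 0, 0 and 1 and FGF19 with 0, 5 and 4. A high level does not show a copy number, which was not measured here.

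Of 77 tumour suppressors 62 reached 1 FPKM (80.5%, beside 54.1% of all protein-coding genes) and 5 were silent, among them 2 at 9p21. CDKN2A (ENSG00000147889, chr9:21967752-21995301, minus strand), which encodes the CDK4 inhibitor p16 and the MDM2 inhibitor p14ARF, had 0 counts in all 3 libraries. CDKN2B (ENSG00000147883, chr9:22002903-22009305, minus strand), which encodes the related inhibitor p15, also had 0. With 3 counts in the smallest library as the limit, CDKN2A was under 0.0503 FPKM and CDKN2B under 0.0489 FPKM. The antisense and divergent lncRNAs of the locus had 0, 0 and 1 counts (CDKN2B-AS1) and 0 counts (CDKN2A-DT).

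Genes on both sides of this locus were read. MTAP, an enzyme of methionine salvage whose annotated end lies 29278 bases from the start of CDKN2A-DT, had 6.93, 7.28 and 7.36 FPKM. Farther along on the same side, KLHL9 had 5.06 ± 0.159 and FOCAD 3.70 ± 0.307 FPKM. On the other side, DMRTA1, which begins 437519 bases after CDKN2B, had 19, 17 and 18 counts (0.200 ± 0.0200 FPKM), and ELAVL2 had 4.66 ± 0.291 FPKM. Of the 12 genes listed for 9p21, the 4 with 3 counts or fewer in every library thus lay between MTAP and DMRTA1. HACD4 (0.09 FPKM) and MLLT3 (0.0867 FPKM), beyond MTAP on its side, were above that limit but also low. In all, 7 of the 12 were under 1 FPKM, so low levels were not confined to the stretch between MTAP and DMRTA1. Of the list, 41.7% reached 1 FPKM, beside 54.1% of all protein-coding genes, and 33.3% were silent, beside 26.0%. As counts, these shares are near those of all protein-coding genes. DNA was not measured, and deletion and silencing of the locus cannot be told apart from these counts. The windows before the RefSeq starts of CDKN2A and CDKN2B held 20 and 18 CG dinucleotides. Before the start of the canonical transcript, 33.6% of silent protein-coding genes had 10 or more.

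**Figure D3:**
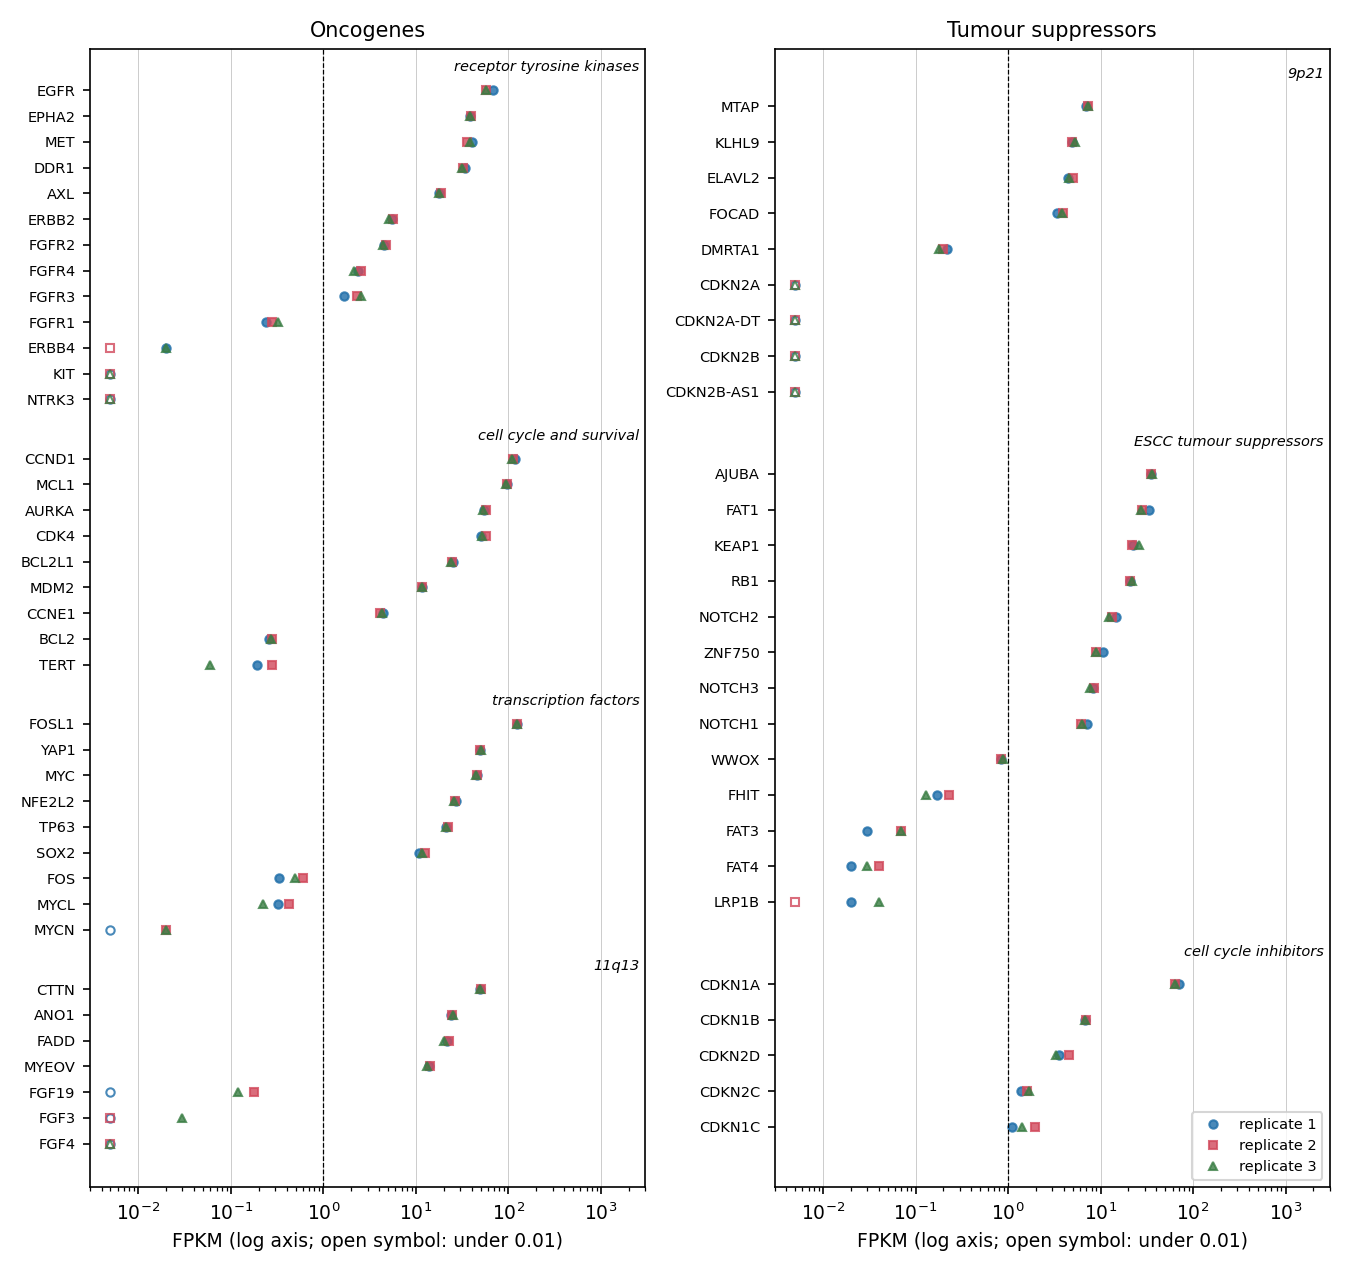
FPKM of each library is drawn on a log axis for oncogenes and 11q13 genes (left) and for 9p21 genes, ESCC tumour suppressors and cell cycle inhibitors (right), as far as the text names them. Circles, squares and triangles are replicates 1, 2 and 3, and open symbols are values under 0.01. CDKN2A, CDKN2A-DT, CDKN2B and CDKN2B-AS1 lie at the left edge in all libraries, and MTAP lies between 6.93 and 7.36.

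The other cell cycle inhibitors were present. CDKN1A, which encodes p21, had 71.3, 64.4 and 63.8 FPKM, and RB1, the protein that cyclin D1 and CDK4 inactivate, had 20.6, 20.8 and 21.8. CDKN1B (6.87 ± 0.0755), CDKN2D (3.803 ± 0.667), CDKN2C (1.56 ± 0.159) and CDKN1C (1.48 ± 0.426) were lower. MDM2, a ubiquitin ligase, had 11.6 ± 0.0520 FPKM.

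Of 31 suppressors known from ESCC, 24 reached 1 FPKM (77.4%, beside 54.1% of all protein-coding genes) and only CDKN2A and CDKN2B were silent. The highest were AJUBA (35.4 ± 0.505), a scaffold of cell contacts, FAT1, an atypical cadherin (29.5 ± 3.15), KEAP1, the inhibitor of NRF2 (23.4 ± 2.49), and RB1. NOTCH2 (13.4 ± 1.09), NOTCH3 (8.15 ± 0.412) and NOTCH1 (6.48 ± 0.525), receptors that drive squamous differentiation, were expressed, with NOTCH2 highest in every library. ZNF750, a factor of epidermal differentiation, had 9.45 ± 1.07. FHIT (0.177 ± 0.0503) and WWOX (0.857 ± 0.0289), both genes at fragile sites, were under 1 FPKM, and so were FAT3 (0.0567 ± 0.0231), FAT4 (0.02, 0.04 and 0.03) and LRP1B (6, 1 and 11 counts). Among suppressors known from other tumours, CSMD1 and PTPRT had 0 counts in every library and DCC had 3, 1 and 3. CDH1 was the highest of that list, and CDH13 (4.02 ± 0.309) and MGMT (2.88 ± 0.216), genes often silenced in tumours, were expressed.

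Of 18 genes of the study itself 17 reached 1 FPKM (94.4%, beside 54.1% of all protein-coding genes), and its lncRNA was read at a low level. PARP1, the enzyme that marks DNA breaks with poly(ADP-ribose), had 19.1, 19.7 and 19.3 FPKM, and XRCC1, the repair scaffold it recruits, had 9.86, 12.2 and 11.3. PARP1 was 1.34 ± 0.0664 times as high as PARP2 (14.5 ± 0.823), or 2.78 ± 0.137 times with canonical transcript lengths. PARG, which removes the mark (7.39 ± 0.901), POLB (7.40 ± 0.359) and LIG3 (2.37 ± 0.0503), enzymes of single-strand break repair, were lower. Of the 3q genes EIF4G1 had 91.8 ± 0.968 FPKM. PMAIP1 (NOXA) was 10.1 ± 0.870 times as high as BBC3 (PUMA, 2.59 ± 0.269), another BH3-only gene, or 6.74 ± 0.592 times with canonical transcript lengths. LINC00885 had 6, 7 and 12 counts, or 0.217 ± 0.0643 FPKM, not far above the limit of 0.0832 FPKM that 3 counts set. Of its exonic bases 67.0% are annotated to no other gene. It was thus above that limit in every library, and the paper reports it in TE13 cells by qPCR and fluorescence in situ hybridization.

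Gene families bound to other tissues were nearly silent. Of 405 olfactory receptor genes 394 were silent (97.3%, against 26.0% of protein-coding genes) and 368 had 0 counts, and OR2A7 (2.14 ± 0.108 FPKM) was the one member at 1 FPKM. Of 94 keratin-associated proteins of hair 90 were silent, of 56 beta-defensins 53, and of 220 T cell receptor segments 219. All 330 immunoglobulin segments and all 10 hemoglobin chains were silent. Of 9 sarcomeric myosin heavy chains, 7 were silent.

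Families of the nervous system had single members that were read. Counts in these families stand beside the 54.1% of all protein-coding genes that reached 1 FPKM. GRIN2D, a subunit of the NMDA receptor, had 8.08 ± 0.769 FPKM, while the other 15 glutamate receptor subunits were under 1. KCNS3, a modifier of potassium channels, had 7.39 ± 0.270 and was the highest of 5 among 40 voltage-gated potassium channel genes that reached 1 FPKM. None of the alpha or beta clustered protocadherins reached it, and of 22 gamma members PCDHGC3 (6.66 ± 0.727) did, the exons of which are shared with other members over part of their length.

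The listed families of cancer-testis antigens of the X chromosome, which many tumours switch on, had nearly no counts. They hold closely similar copies, so that their counts depend on how reads with several matches were treated. Of 13 MAGEA genes 12 were silent (92.3%, against 26.0% of protein-coding genes) and none reached 1 FPKM, the highest mean being 0.107. All 24 GAGE, PAGE and XAGE genes were silent, and all 8 SSX genes had 0 counts.

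The HOX clusters, which encode body position, had 28 of 39 genes at or above 1 FPKM, beside 54.1% of all protein-coding genes, and 3 silent genes. They included 14 of the 16 genes of paralogue groups 9 to 13, which belong to the posterior trunk and limbs in the embryo. HOXC10 (20.6 ± 0.774 FPKM), HOXD10 (15.9 ± 0.291) and HOXA10 (12.7 ± 0.0577) were among the highest. Antisense and neighbouring genes overlap several of these, and 73.7% of the exonic bases of HOXA10 are annotated to it alone.

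Developmental and metabolic families were mostly read through 1 or a few members. The counts below stand beside the 54.1% of all protein-coding genes that reached 1 FPKM. Of 19 SOX genes 8 reached 1 FPKM, led by SOX15, SOX9 (22.3 ± 0.710), SOX4 (15.1 ± 0.276) and SOX2, and of 9 PAX genes only PAX9 (5.68 ± 0.583), a factor of foregut epithelium, did. WNT7B (10.5 ± 0.512), WNT10A (10.4 ± 0.703) and WNT7A (8.03 ± 0.959) led 8 of 19 WNT ligands, and FGF2 (3.09 ± 0.171) was the only 1 of 22 FGF ligands. Of 7 alcohol dehydrogenases only ADH5, the housekeeping member, reached 1 FPKM (18.2 ± 0.375), and 5 had 0 counts. Of 18 aldehyde dehydrogenases 12 did, headed by ALDH1A3, an enzyme of retinoic acid synthesis (112 ± 8.12). CYP2S1, an oxidase of epithelia (16.2 ± 1.00), led 5 of 36 cytochromes P450 of families 1 to 4. Of 16 kallikreins 8 did, and KLK6 stood above KLK10 (28.0 ± 2.89), KLK8 (18.2 ± 0.252) and KLK5 (16.9 ± 0.649). Of the families not yet named, 4 of 17 mucins, 8 of 24 claudins, 3 of 10 aldo-keto reductases, 1 of 19 glucuronosyltransferases, 1 of 19 GABA-A receptor subunits, 1 of 14 crystallins, none of 27 taste receptors and none of 5 vomeronasal receptors reached 1 FPKM. The highest mucin was MUC4, a membrane-bound mucin, with 11.4, 8.73 and 8.89 FPKM.

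**Figure D4:**
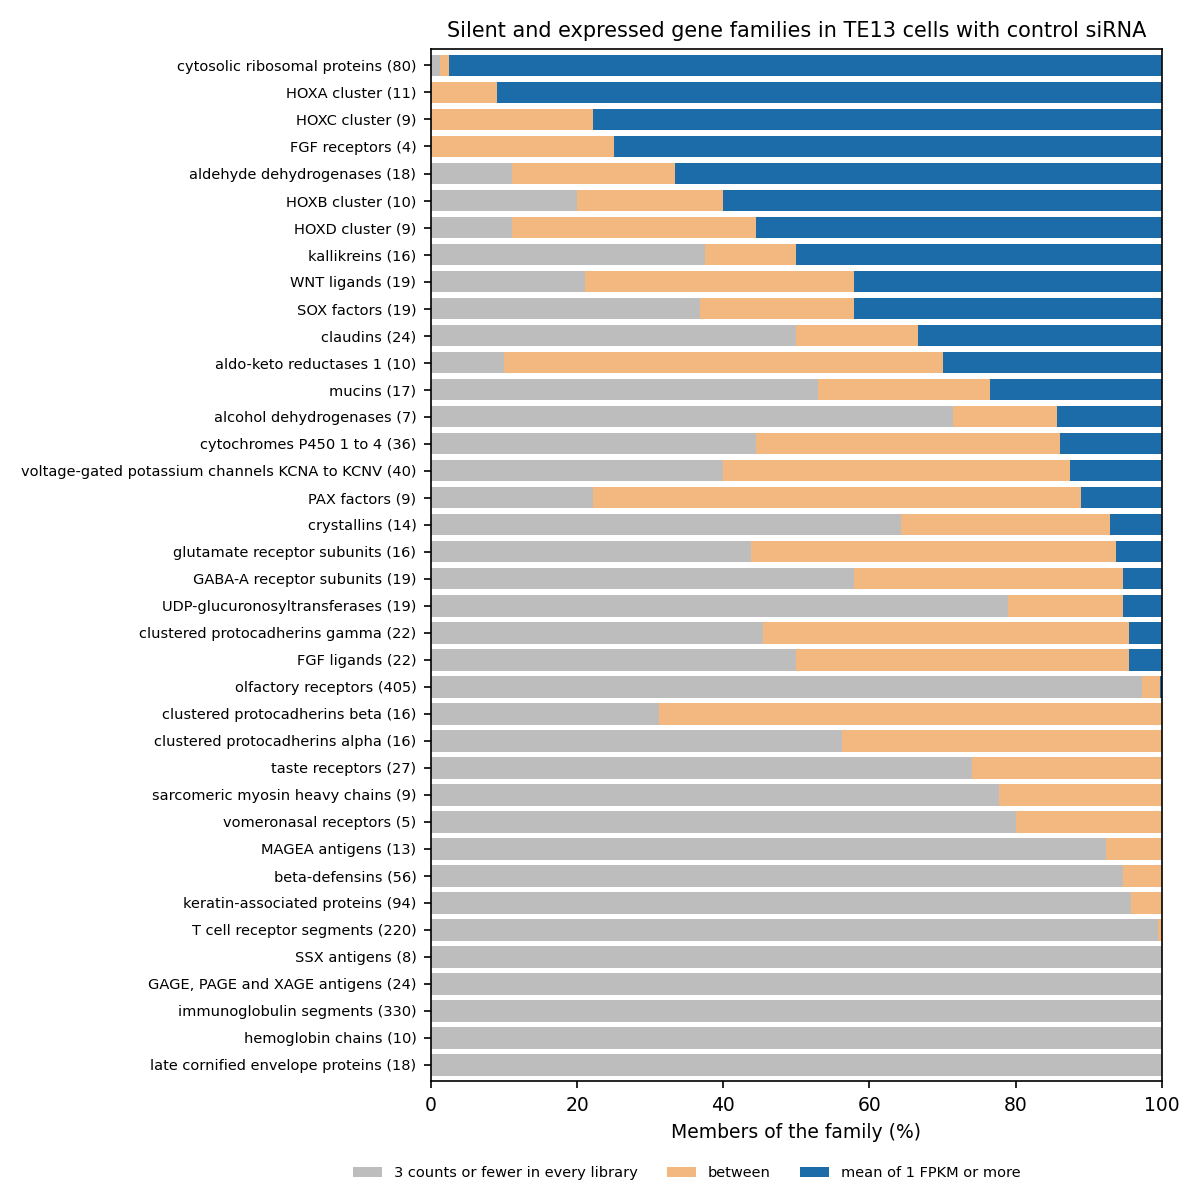
Each bar divides a gene family, with its number of members in brackets, into the percent of members with 3 counts or fewer in every control library (grey), with a mean of 1 FPKM or more (blue) and between (orange). Immunoglobulin segments, SSX antigens and hemoglobin chains are grey throughout, olfactory receptors are 97.3% grey, and 10 of 11 HOXA genes are blue.

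CG dinucleotides before the start were fewer in silent than in expressed genes. Over the 250 bases before the start of the canonical transcript, read from GRCh38, 19928 nuclear protein-coding genes had a median of 18 CG dinucleotides, and 70.4% had 10 or more. Silent genes had a median of 5, genes between 1 and 10 FPKM 22, and genes at or above 100 FPKM 23. TATAAA on the gene's own strand, beginning 40 to 20 bases before the start, stood before 3.93% of all these genes, before 8.07% of silent genes, before 1.46% of those between 1 and 10 FPKM and before 6.38% of those at or above 100 FPKM. A match gives letters only and does not show that a factor binds. Of the genes at or above 100 FPKM 93.6% had 10 or more CG dinucleotides, and KRT5 with 6 was not one of them. In these RefSeq windows KRT5 had 6, EGFR 25, SOX2 20 and TP63 6.

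Replicates agreed closely, and the agreement rose with the count. The median coefficient of variation (CV, the SD as a percent of the mean) was 23.7% for genes of 10 to 100 counts, 7.17% for 100 to 1000, 3.65% for 1000 to 10000 and 2.55% above that. Counting alone gives 18.9%, 5.08%, 2.33% and 0.817%. The common biological coefficient of variation of edgeR, which leaves out counting error, was 0.0556 over 21023 genes. Among squamous markers the CV ran from 2.34% (TP63) to 10.4% (EGFR), with a median of 5.91%, and among 14 housekeeping genes, which all reached 1 FPKM, the median was 2.21%.

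Variance beyond counting was widespread. Of 15821 genes with a mean of at least 10 counts, 5776 (36.5%) had an index of dispersion, the variance of scaled counts over their mean, above 3.00, a value that counting alone exceeds in 5% of genes. Without replicate 1 the number was 3668, and without replicate 2 or 3 it was 4329 or 4188, with fewer libraries behind each index. No pair of libraries agreed within sampling noise, since chi-square divided by its degrees of freedom was 3.52 for replicates 1 and 2, 3.59 for 1 and 3 and 2.79 for 2 and 3. Each was counted as 1 sample, although these values cannot show separate cultures, because separate libraries of 1 culture can also differ beyond counting. Among the lowest CVs of genes with at least 100 counts were those of KARS1, a lysyl-tRNA synthetase (55.1, 55.1 and 55.1 FPKM), TMEM59, RRM1 and MFAP3.

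The deviation of replicate 1 moved with transcript length. Replicate 1 lay 0.04 below the mean of the 3 libraries on the log2 scale in the median of 730 genes with canonical transcripts under 1000 bases and 0.05 above it in the median of 973 genes at or over 8000 bases. Replicates 2 and 3 moved the other way, as together they must, because each deviation is taken from the mean of the same 3 libraries. Replicate 1 was the highest library in 60.8% of the long genes and in 146 of the 730 short ones, against 34.0% of all 10940 genes compared. The index was highest for FN1 (522), LAMA3 (458), MUC16, a large surface mucin (365), H19 (249) and AHNAK (214), with transcripts of 8390, 10651, 43816 and 18761 bases for FN1, LAMA3, MUC16 and AHNAK. MUC16 had 6.91, 4.24 and 4.02 FPKM. EGFR (135) and LAMB3 (107) were also among the highest 10, and in 7 of these 10 replicate 1 had the highest FPKM. The other 3 were MT-CO3, MT-RNR2 and MT-ND4, in which replicate 3 was the highest. At the same CV the index rises with the count, so abundant genes rank high by it. The CVs of MT-CO3, MT-RNR2 and MT-ND4 were 4.69%, 3.30% and 2.25%. What sets the long transcripts apart in replicate 1 was not tested.

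**Figure D5:**
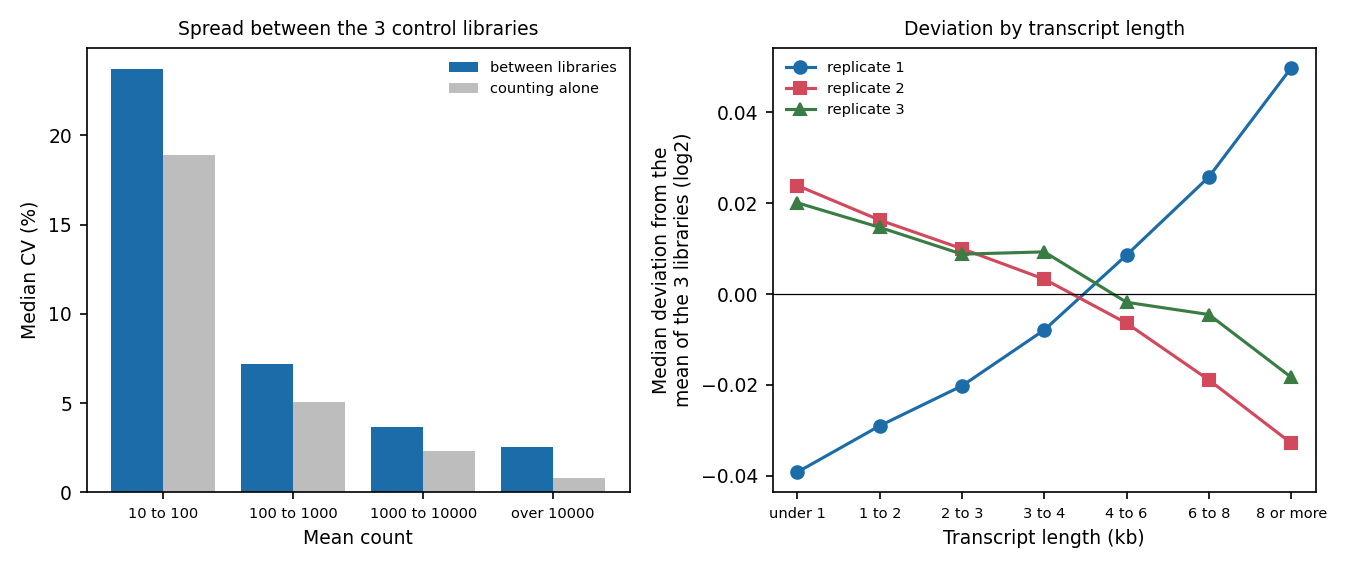
Left, bars give the median CV between the 3 control libraries (blue) and the CV that counting alone gives (grey) for genes grouped by mean count. Right, the median log2 deviation of each library from the mean of the 3 is drawn against the length of the canonical transcript in kb. Replicate 1 rises from -0.04 to 0.05 with length, and replicates 2 and 3 fall, as together they must with deviations from a shared mean.

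The most variable genes by CV, among those with at least 100 counts, were mostly near 1 FPKM. CBS, which encodes cystathionine beta-synthase, had 80, 71 and 200 counts and the highest CV (52.2%). GRCh38 holds a second, near-identical copy of CBS, so that its count depends on how reads with several matches were treated. IRAK1BP1 (180, 112 and 96 counts) and the pseudogene LSM12P1 (197, 207 and 101) followed with 40.5% each, then ZNF718, NBPF10, a member of a family of near-identical genes, TNFRSF1B, HEPHL1, RALGAPA1P1, MUC16 and PAX7, with CVs between 31.6% and 39.5%. None of the squamous markers was among them.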

How the data were processed

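Poly(A)+ RNA of TE13 cells was sequenced by the study. According to its methods, reads were checked with FastQC, aligned with STAR to GRCh38 and counted per gene with featureCounts; versions, annotation release and strand setting are not given in the sources used here. The authors deposited raw counts per gene, not normalized, and FPKM, which equal count over exonic length and library total (recomputed within 0.0050). Of 60605 identifiers 60463 were found in GENCODE release 44, which gave gene types, exon overlap and canonical transcripts; 93.8% have the same start and end there. Without a stated strand setting, overlapping genes are uncertain.

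The 3 libraries labelled control siRNA were used, and nothing was tested between groups. Lists (31, with 441 genes) and 38 families, by symbol, were written from recall, and they and the members were chosen with earlier results of these data known. Named genes are the 20 highest by FPKM and 10 by count, members of the squamous, keratin, oncogene, suppressor, 11q13, 9p21 and study lists, the 4 highest and the defining markers of other lists, up to 4 members of a family at 1 FPKM or more, and the 10 highest and 5 lowest CVs and 10 highest indices of dispersion; others are marked as chosen after their values were seen. Some genes that this rule names are not reported here. A limit is 3 counts in the smallest library, and covers counting error only. The common biological coefficient of variation came from edgeR 4.0.16 in R 4.3.3 (TMM scaling, mean FPKM of 0.1 or more), tested on simulated data, with DESeq2 1.42.0 size factors as an alternative. Other values were computed in Python 3.11.15 (numpy 2.4.6, pandas 2.3.3, scipy 1.17.1). Printed bases are from RefSeq.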

Additional observations from a re-analysis of the deposited data

How the results depend on the processing

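The number of expressed genes stayed within 1.5 times 12526 under every alternative, from 10332 at 2 FPKM to 16723 with TPM, a scale on which levels were 3.37 times the FPKM in the median, and it was between 12529 and 12558 without 1 replicate. The share of the 10 most abundant genes was 3.24% without mitochondrial genes and 6.60% for the 10 highest by FPKM, and between 7.56% and 7.64% without 1 replicate. The common biological coefficient of variation was between 0.0475 and 0.0591 without 1 replicate, the lowest without replicate 1, and between 0.0556 and 0.0561 under other scalings and filters. Genes beyond counting numbered between 3668 and 4329 without 1 replicate, fewest without replicate 1, and between 4320 and 8286 under other scalings and filters. Of 441 listed genes, 282 reached 1 FPKM, and between 281 and 303 under the alternatives. Of 31 lists, 3 changed their count by over 1.5 times, with TPM: 2 blood, 2 endothelial and 1 melanocyte marker then reached 1. No paired analysis was possible because the values come from 1 group and no test. With counts divided by canonical transcript lengths, an alternative chosen after seeing the data, 1 of 14 ratios of levels reversed, SOX2 to KRT14 (0.934). Levels at or under 3 counts are not told from 0, and 3 libraries give a rough SD.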
